A study of Mus musculus with 9 samples.

Results

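The miR-34 and miR-449 family was followed through small RNA sequencing of whole kidneys from mouse embryos at embryonic day 16.5. Its members were the 6 names miR-34a-5p, miR-34b-5p, miR-34b-3p, miR-34c-5p, miR-34c-3p and miR-449a-5p, taken by name from 1607 known mouse miRNA names counted in at least 1 library. There were 3 libraries from DROSHA knockout kidneys, 3 from kidneys carrying a DROSHA-E1147K transgene and 3 from wild-type control kidneys. DROSHA, an RNase III enzyme of the nucleus, releases the hairpin precursors of miRNAs from their primary transcripts, and the E1147K substitution lies in an RNase III domain. The labels name no mouse line, promoter or Cre driver and do not tie libraries to animals. The kidneys may therefore still contain cells with normal DROSHA, and the replicate spread behind each p-value may be only technical.

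The miR-34 genes are known as direct transcriptional targets of the tumour suppressor p53, and their 5p strands restrain cell-cycle genes. The genes mir-34b/c and mir-449 are also known from multiciliated epithelia of the airway, oviduct and brain ventricles, where they act together in building motile cilia. Tubule cells of the mammalian kidney carry primary, non-motile cilia.

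The mature sequences show why these names are treated together, and they also split the members into 2 seed groups. Bases 2 to 8, the seed that pairs with target mRNAs, are in capitals, and sequences are from RefSeq on build GRCm38.p6, which held 5 of the 6 members and not miR-34c-5p.
mmu-miR-34a-5p: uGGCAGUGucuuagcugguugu
mmu-miR-34b-5p: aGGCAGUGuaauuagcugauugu
mmu-miR-449a-5p: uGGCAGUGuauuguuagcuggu
mmu-miR-34b-3p: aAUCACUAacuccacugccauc
mmu-miR-34c-3p: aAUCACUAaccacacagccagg
Of 1738 mature mouse sequences in that table, 4 had the seed GGCAGUG: the 3 listed here and miR-449c-5p. The seed AUCACUA was found in 2, miR-34b-3p and miR-34c-3p. Those 2 have the same first 10 bases and the same base at 17 of 22 positions, whereas miR-34a-5p and miR-449a-5p have the same first 9 bases. The 5 listed sequences are 22 or 23 bases long, and miR-34a-3p and miR-449c-5p are 21. Counts of reads were compared between names without a length correction.

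The members come from 3 loci. The mir-34a hairpin lies at chr4:150068454-150068555 on the plus strand, and its 3′ end overlaps an exon of Gm37795, an unclassified transcript on the same strand. mir-34c (chr9:51103034-51103110) and mir-34b (chr9:51103562-51103645) lie 451 bases apart on the minus strand, within an intron of Btg4, which runs on the opposite strand. mir-449a (chr13:113037534-113037624) lies on the plus strand within an intron of Cdc20b, as do mir-449b, 35 bases before it, and mir-449c, 1327 bases before mir-449b. In the hairpins below the 5p and 3p mature strands are in capitals, because the balance of these strands is described further on.
Mir34a hairpin: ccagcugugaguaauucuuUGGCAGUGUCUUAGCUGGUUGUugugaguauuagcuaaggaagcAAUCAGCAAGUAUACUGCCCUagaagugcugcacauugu
Mir34b hairpin: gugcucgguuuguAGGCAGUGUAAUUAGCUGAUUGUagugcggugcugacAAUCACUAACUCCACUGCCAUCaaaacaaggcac
Mir449a hairpin: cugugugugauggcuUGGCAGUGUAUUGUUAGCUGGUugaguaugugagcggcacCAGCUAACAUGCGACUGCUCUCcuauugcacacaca

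Between 24350500 and 34896599 reads per library were counted to known miRNAs. Drosha mRNA is outside this assay and gives no check of the genotypes. Levels are given in CPM, counts relative to the total of miRNA reads after scaling by TMM, the trimmed mean of M values. A change shared by most miRNAs therefore cannot be seen in these levels or in their fold changes. Mature miRNA rows took 74.66% to 77.02% of counted reads in knockout and 76.85% to 79.07% in transgene libraries. In control libraries they took 80.93% to 81.9%. TMM factors were 1.009 to 1.114 in knockout, 0.9111 to 1.131 in transgene and 0.8818 to 0.9256 in control libraries. The cause of these differences was not tested. Markers of the labelled tissue were present in all 9 libraries: the Hox-cluster pair miR-10a-5p and miR-10b-5p summed to at least 38920 CPM and a tubule list of 4 miRNAs to 2723 to 3220 CPM in knockout kidneys and 3562 to 4529 CPM in transgene kidneys, against 5066 to 8547 CPM in control kidneys. Knockout 3 stood apart in markers of other tissues. Its 5 striated muscle miRNAs summed to 10510 CPM, against 220.7 to 2072 CPM in the other 8 libraries, and its 4 erythroid miRNAs to 112200 CPM, against 21370 to 79990 CPM. Transgene 2 stood apart in 3 endocrine and liver miRNAs, which summed to 21600 CPM there, against 1107 to 12200 CPM in the other 8 libraries. In none of the muscle, erythroid, leukocyte, neural, or endocrine and liver lists was a marker at 0 in any library, and the part of such tissue in the values given next was not tested.

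The kidneys carried the family mainly as miR-34a-5p. The 10 family names in the files (the members, miR-34a-3p, miR-449a-3p, miR-449b and miR-449c-5p) together took 0.191% to 0.299% of miRNA reads. Of those family reads, miR-34a-5p took from 79.1% in knockout 3 (exact Clopper-Pearson 95% interval 78.8% to 79.4%, counting error only) to 92.5% in transgene 3 (92.3% to 92.7%). By level it ranked between place 56 and place 86 in each library. Its range over the 9 libraries, 1428 to 2827 CPM, lay far above that of every other family name.

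The order below miR-34a-5p was less sharp. The medians over 9 libraries were 107.8 CPM for miR-34b-3p, 91.7 CPM for miR-449a-5p, 63.2 CPM for miR-34c-3p, 29.8 CPM for miR-34c-5p and 13.3 CPM for miR-34b-5p. Neighbours in this order had overlapping ranges. miR-34b-3p exceeded miR-449a-5p in 6 of 9 libraries and miR-449a-5p exceeded miR-34c-3p in 8 of 9. Within each library, miR-34c-3p exceeded miR-34c-5p, which exceeded miR-34b-5p, in 9 of 9. miR-34a-3p stood lower, at 0.814 to 1.91 CPM (20 to 52 reads). The other mir-449 names were near the limit of detection: miR-449c-5p had 1 to 7 reads a library, miR-449a-3p 0 to 3 and miR-449b 1 read in knockout 1 and 0 in the other 8, where 3 reads correspond to 0.0860 to 0.123 CPM before TMM scaling. Among the mir-449 names, nearly all reads were thus of miR-449a-5p. A separate Rfam row for mir-449, with 14 to 61 reads a library, was higher in each knockout library than in each control, as were 12.6% of 95 such rows.

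miR-34a-5p, the most abundant member, stood at 2376, 2232 and 1932 CPM in knockout kidneys and at 2014, 1428 and 2147 CPM in transgene kidneys, against 2039, 2491 and 2827 CPM in control kidneys. The 3 groups overlapped, and transgene 2 was the lowest library. In edgeR's quasi-likelihood test over 955 miRNAs, with Benjamini-Hochberg adjustment, the log2 fold change was -0.17 for knockout against control (SE 0.22, 95% interval -0.67 to 0.33, adjusted p = 0.662). For the transgene against control it was -0.40 (SE 0.22, interval -0.90 to 0.10, adjusted p = 0.563), and -0.17 without transgene 2, the library with the highest endocrine and liver markers. Its knockout fold turned to 0.05 when miRNA totals replaced TMM and to 0.00 without knockout 3. In whole kidneys a change in the number of cells with a miRNA and a change in its amount per cell cannot be told apart.

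miR-449a-5p, the member encoded within Cdc20b, stood at 91.7, 119.2 and 145.9 CPM in knockout kidneys and at 111.1, 85.2 and 79.7 CPM in transgene kidneys, against 88.4, 89.2 and 101.5 CPM in control kidneys. Knockout 3 was the highest library, knockout 1 lay among the controls, and all 3 groups overlapped. The log2 fold change was 0.35 for knockout against control (SE 0.25, interval -0.22 to 0.93, edgeR adjusted p = 0.424) and -0.02 for transgene against control (SE 0.25, interval -0.59 to 0.56, edgeR adjusted p = 0.987). The sign of the transgene value changed in 9 of 17 alternative settings, so no direction can be read from it.

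The mir-34b/c cluster gave 4 members, which come in pairs from the same hairpin. The 2 hairpins are known to be transcribed together, so these are not 4 independent measurements. miR-34b-3p stood at 107.8, 167.8 and 166.6 CPM in knockout kidneys and at 125.6, 65.8 and 46.3 CPM in transgene kidneys, against 107.7, 82.9 and 108.4 CPM in control kidneys. miR-34b-5p, with the same seed as miR-34a-5p, stood at 14.8, 13.3 and 32.8 CPM in knockout kidneys and at 12.5, 10.8 and 5.61 CPM in transgene kidneys, against 19.4, 9.38 and 15.6 CPM in control kidneys. Transgene 3 was the lowest library for each of these strands, with 163 reads of miR-34b-5p (95% Poisson interval 139 to 190), and knockout 3 was the highest for miR-34b-5p.

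For the mir-34c hairpin, miR-34c-5p stood at 30.2, 44.7 and 49.9 CPM in knockout kidneys and at 23.2, 29.8 and 14.7 CPM in transgene kidneys, against 29.8, 36.5 and 26.3 CPM in control kidneys. miR-34c-3p stood at 57.7, 85.9 and 113.2 CPM in knockout kidneys and at 63.2, 71.4 and 27.8 CPM in transgene kidneys, against 53.2, 110.9 and 52.0 CPM in control kidneys. Knockout 3 was again highest and transgene 3 lowest for both strands. The controls themselves spread widely for miR-34c-3p, with control 2 far above the other 2.

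**Figure D1:**
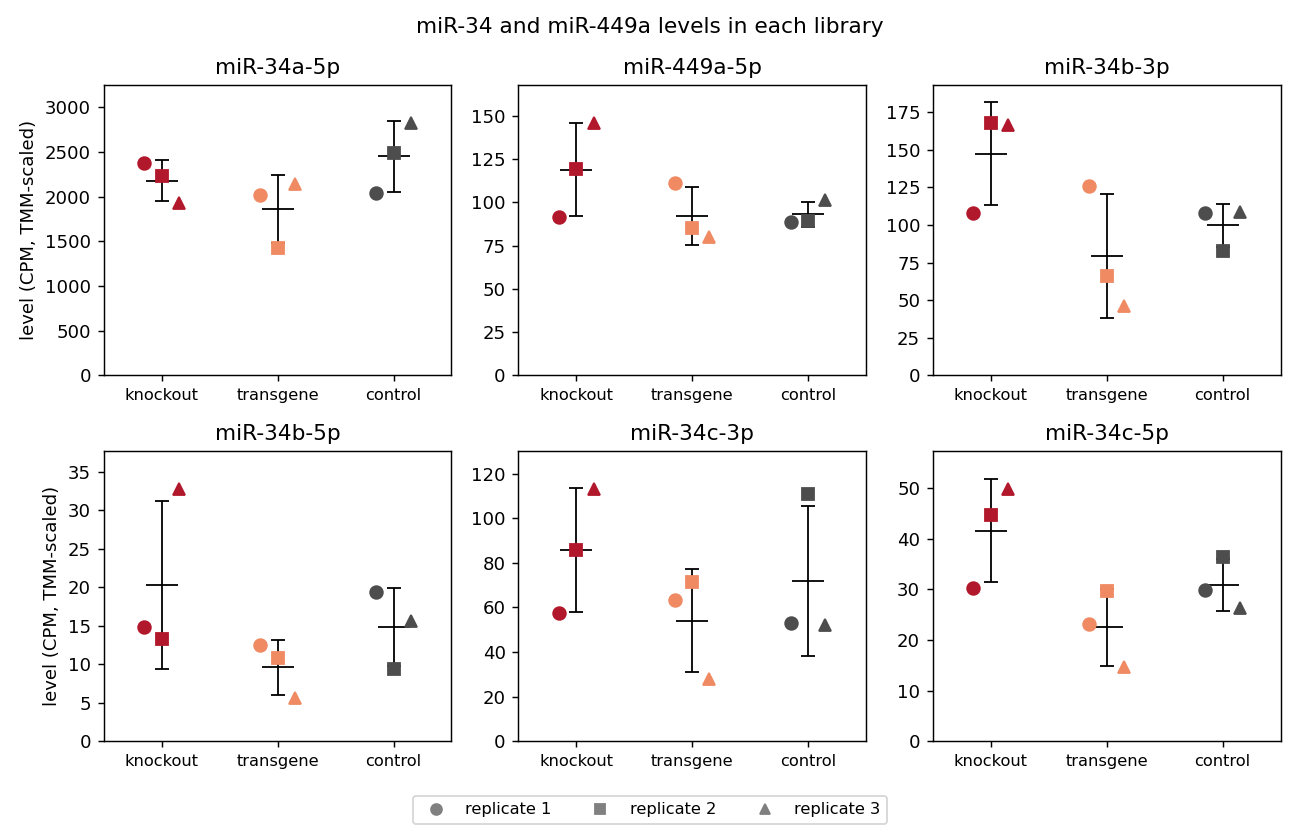
Level of each of the 6 members (y axis, TMM-scaled CPM, starting at 0) in knockout, transgene and control kidneys; each point is 1 library, with the symbol giving the replicate number, and the bar and whiskers give the mean and SD of 3 libraries. miR-34b-5p and miR-34c-5p are the 2 members whose knockout points all lie above the transgene points.

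Against controls, no member passed an adjusted p of 0.05 in either genotype. For knockout against control the 4 mir-34b/c strands had log2 fold changes of 0.25 to 0.56, the highest for miR-34b-3p (SE 0.38, interval -0.30 to 1.43, edgeR adjusted p = 0.397), and 5 of the 6 members were positive, with a median of 0.39. Over all 955 miRNAs tested, 48.9% were positive and the median was -0.03. The edgeR test called 0 of 955 (0.00%) in this comparison, with 245 (25.7%) at an unadjusted p under 0.05, and DESeq2 called 104. Without knockout 1, edgeR called 48. None of the 6 members was among the calls of these settings, and none had an unadjusted p under 0.05 in the edgeR fit of all libraries. The erythroid markers were higher in each knockout library (71660 to 112200 CPM) than in each control (21370 to 52280 CPM), and the Hox pair lower (38920 to 81340 CPM, against 112700 to 138700 CPM in controls). Groups overlapped for a list of 3 miRNAs of ureteric and tubule epithelium (4385 to 7775 CPM in the knockout, 6883 to 7678 CPM in controls). They also overlapped for miR-126a-3p of endothelium (32480 to 47600 CPM, against 43770 to 54570 CPM). The part of these lists in the member values was not tested. Without knockout 3, the fold of miR-34b-5p was 0.01 in place of 0.46, while that of miR-34b-3p stayed at 0.56 and that of miR-34c-5p was 0.38 in place of 0.43. The knockout and control groups overlapped for each member in TMM-scaled CPM, where 28.5% of all tested miRNAs had groups that do not overlap and 12.9% were higher in the knockout without overlap. In CPM of miRNA reads without TMM, a scale on which the median log2 fold change of all tested miRNAs was 0.19, the knockout lay above the controls without overlap for miR-34b-3p, miR-34c-5p and miR-449a-5p. In CPM of all counted reads this was so for miR-34b-3p but not for miR-34c-5p or miR-449a-5p. The share of all tested miRNAs without overlap was not taken on either unscaled measure, so these members cannot be set against it.

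For transgene against control the 4 mir-34b/c strands were negative, where they were positive for the knockout, and miR-34a-5p was negative in both comparisons. The 6 members had negative log2 fold changes with a median of -0.40, where 53.3% of all tested miRNAs were negative and their median was -0.04. The values were -0.33 for miR-34b-3p (SE 0.38), -0.62 for miR-34b-5p (SE 0.47), -0.41 for miR-34c-3p (SE 0.46) and -0.45 for miR-34c-5p (SE 0.33), with edgeR adjusted p from 0.634 to 0.780. None passed. The test called 0 of 955 (0.00%), with 84 (8.80%) at an unadjusted p under 0.05, and DESeq2 called 4, none of them a member. In no member were the transgene and control groups without overlap, while 24.0% of all tested miRNAs had groups that do not overlap. Without transgene 3, the fold of miR-34b-3p was 0.01. The Hox pair was lower in each transgene library (63100 to 110300 CPM) than in each control (112700 to 138700 CPM), as was the tubule list, and their part in these values was not tested. Unscaled miRNA totals moved the median of all tested miRNAs to 0.18, and the sign of miR-449a-5p turned with it, to 0.18. The knockout and transgene comparisons used the same 3 controls.

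For knockout against transgene the 6 members were positive with a median log2 fold change of 0.77, where 53.1% of all tested miRNAs were positive and their median was 0.05. The fold was 1.84 for miR-34c-5p (log2 0.88, SE 0.33, interval 0.14 to 1.63), 2.11 for miR-34b-5p (log2 1.08, SE 0.47, interval 0.01 to 2.14) and 1.86 for miR-34b-3p (log2 0.90, SE 0.38, interval 0.02 to 1.77). Their unadjusted p-values in the edgeR fit were 0.0251, 0.0484 and 0.0452, but the adjusted p was 0.652 for each, so none passed. miR-34c-3p had a log2 fold change of 0.66 (SE 0.46), miR-449a-5p of 0.37 (SE 0.25) and miR-34a-5p of 0.23 (SE 0.22), with edgeR adjusted p from 0.707 to 0.737.

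Over all miRNAs, 67 of 955 (7.02%) had an unadjusted p under 0.05, 33 of 955 (3.46%) with the knockout higher, and edgeR called 1 (0.105%), miR-3067-5p, which is no member; DESeq2 called 3, none a member. Groups did not overlap, with the knockout higher, for 4.40% of all tested miRNAs and for 2 of the 6 members, miR-34b-5p and miR-34c-5p. For miR-34c-5p this rested on the scaling: in CPM of miRNA reads without TMM, knockout 1 stood at 33.66 and transgene 2 at 33.68. On that scale miR-34b-3p (lowest knockout 120.1, highest transgene 114.4) and miR-449a-5p (lowest knockout 102.1, highest transgene 101.2) had groups that do not overlap, but both overlapped in CPM of all counted reads. For miR-34b-5p the groups did not overlap on either unscaled measure, at 16.5, 13.4 and 33.8 CPM of miRNA reads in knockout kidneys against 11.4, 12.2 and 6.31 in transgene kidneys. The share of all tested miRNAs without overlap was not taken on the unscaled measures, and the 4.40% holds for TMM-scaled CPM only. Leaving out transgene 3 gave log2 folds of 0.75 for miR-34b-5p, 0.60 for miR-34b-3p and 0.62 for miR-34c-5p. Leaving out knockout 3 gave 0.57 for miR-34b-5p, and leaving out transgene 1 gave 1.43 for miR-34b-3p. The lowest adjusted p of miR-34c-5p over the 17 alternatives was 0.372, and the highest 0.841. Erythroid markers in transgene 3 (27200 CPM) were also the lowest of both genotypes, and whether they bear on these values was not tested.

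**Figure D2:**
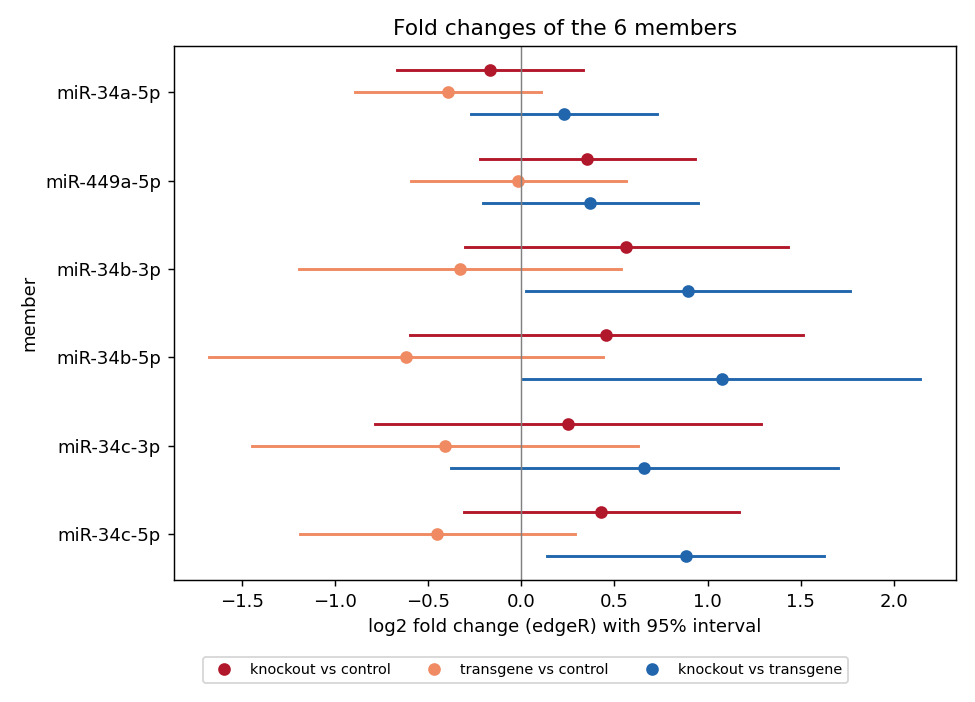
Log2 fold change of each member in the edgeR fit with its 95% interval (x axis), for knockout against control, transgene against control and knockout against transgene. The intervals against controls cross 0 for each of the 6 members, and those of miR-34b-3p, miR-34b-5p and miR-34c-5p lie just above 0 for knockout against transgene, before adjustment over 955 miRNAs.

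The hairpins differed in which strand was kept, and here the sequence groups matter: 5p reads of mir-34a carry the seed GGCAGUG, while most reads of mir-34b carry AUCACUA. mir-34a was read almost wholly from its 5p strand, with 1030 to 2846 reads of 5p per read of 3p (pseudocount 1), and mir-449a likewise, at 692 to 2760. mir-34b ran the other way, with 5.08 to 12.6 reads of 3p per read of 5p. mir-34c also favoured its 3p strand, at 1.78 to 3.04 reads of 3p per read of 5p. This held in each of the 9 libraries. Among 289 hairpins with at least 10 reads on average on each strand, 46.0% had more 3p than 5p reads, so a 3p excess is common, and the median size of the log2 ratio was 3.82. Ligation and amplification can favour particular small RNA ends, so a ratio between strands compares reads, not molecules.

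The strand ratio did not separate the genotypes. For mir-34b the mean log2 ratio of 5p over 3p was -2.95 ± 0.659 in knockout kidneys, -2.99 ± 0.366 in transgene kidneys and -2.80 ± 0.334 in control kidneys (SD, n = 3 each; exact two-sided permutation p against controls 0.8 for the knockout and 0.6 for the transgene). For mir-34c it was -1.02 ± 0.141 in knockout, -1.21 ± 0.265 in transgene and -1.14 ± 0.409 in control kidneys (SD, n = 3 each; exact permutation p 0.8 for the knockout and 0.9 for the transgene). For mir-34a it was 10.8 ± 0.555 in knockout, 10.6 ± 0.586 in transgene and 10.8 ± 0.564 in control kidneys (SD, n = 3 each; exact permutation p 0.9 for the knockout and 0.7 for the transgene). The smallest p that 3 against 3 libraries allow is 0.1, and after adjustment over 12 tests every value was at least 0.982. Groups overlapped for each of the 4 family hairpins in each comparison, where 14.5% of 289 hairpins had groups that do not overlap for knockout against control, 11.1% for transgene against control and 12.1% for knockout against transgene. For mir-449a, with 0 to 3 reads of 3p a library and so not among the 289 hairpins, a difference was not detectable at this depth.

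**Figure D3:**
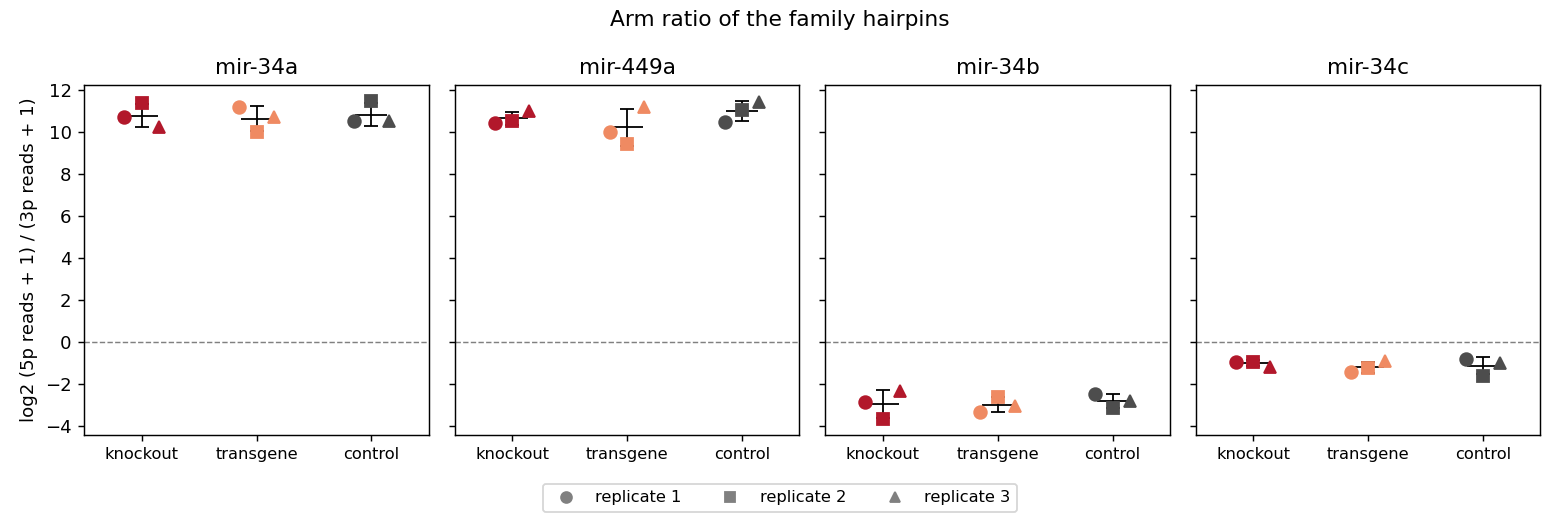
Log2 ratio of 5p to 3p reads (pseudocount 1, y axis) of 4 family hairpins in knockout, transgene and control kidneys; each point is 1 library, and the bar and whiskers are the mean and SD of 3. mir-34a and mir-449a lie between 9.43 and 11.5 and mir-34b and mir-34c lie below 0 in each library.

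The 2 hairpins of the mir-34b/c cluster did not keep a fixed ratio from library to library. On the 3p strands, miR-34c-3p took 57.2% of the summed miR-34b-3p and miR-34c-3p reads in control 2 (exact Clopper-Pearson 95% interval 55.8% to 58.7%) and 52.0% in transgene 2 (50.6% to 53.5%). In the other 7 libraries it took 32.4% to 40.5%, the highest of them being knockout 3. On the 5p strands, miR-34c-5p took 79.6% in control 2 (77.0% to 81.9%) and 77.0% in knockout 2 (74.8% to 79.2%), and 60.3% to 73.4% in the other libraries. Control 2 was high on both strands, whereas knockout 2 was high on 5p and, at 33.9%, not on 3p. These intervals cover counting error only and do not measure the spread expected between separate libraries, and how reads matching both hairpins were counted is not stated in the labels or files.

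On the 5p strands the ratio of mir-34c to mir-34b differed between groups by less than the SD within any group. On the 3p strands the log2 difference of knockout from transgene was -0.27. There the SD was 0.22 in knockout and 0.58 in transgene kidneys (n = 3 each), and groups overlapped. The mean log2 ratio of miR-34c-5p over miR-34b-5p was 1.13 ± 0.575 in knockout kidneys, 1.25 ± 0.305 in transgene kidneys and 1.11 ± 0.735 in control kidneys (SD, n = 3 each; exact two-sided permutation p against controls 1.0 for the knockout and 0.8 for the transgene). Relative to mir-34a, the 5p reads of mir-34b/c together stood at a log2 ratio of -5.72, -5.27 and -4.55 in knockout kidneys and at -5.82, -5.14 and -6.73 in transgene kidneys, against -5.37, -5.76 and -6.08 in control kidneys. The knockout mean was 0.56 above the control mean (exact permutation p 0.2) and 0.71 above the transgene mean (exact permutation p 0.4), with an adjusted p of 0.96 over 6 tests for each, and groups overlapped. This ratio is free of the scaling between libraries.

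**Figure D4:**
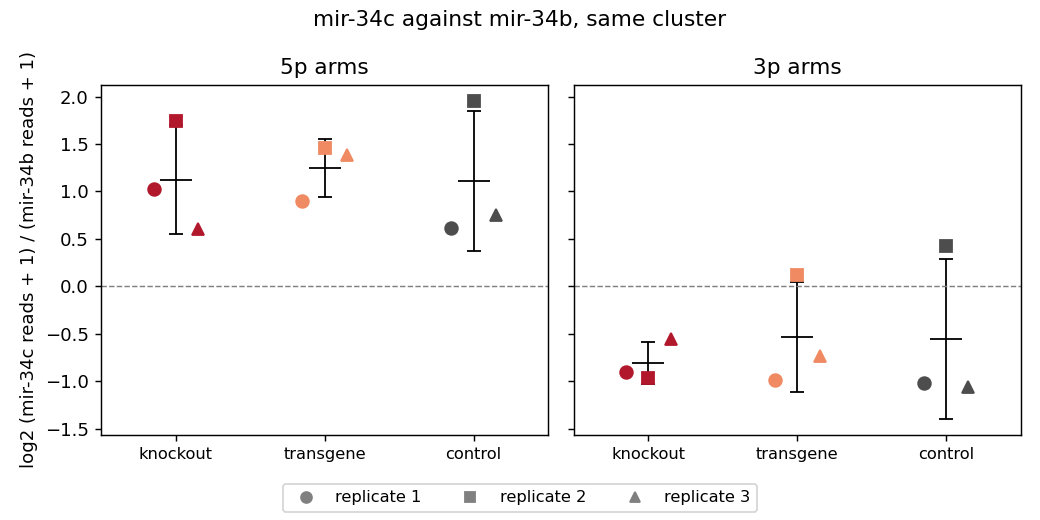
Log2 ratio of mir-34c to mir-34b reads (pseudocount 1, y axis) for the 5p strands (left) and the 3p strands (right) in knockout, transgene and control kidneys; each point is 1 library, and the bar and whiskers are the mean and SD of 3. On the 3p strands control 2 (0.42) and transgene 2 (0.12) lie above 0 and the other 7 libraries below.

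The profiles of the members over the 9 libraries were not equally near to each other. The root mean square difference between 2 profiles of log2 CPM, each centred on its own mean, was smallest between the 2 strands of mir-34c (0.25 log2 units) and largest between miR-34a-5p and miR-34b-5p (0.72). miR-34a-5p varied by 0.26 log2 units about its own mean, miR-449a-5p by 0.26 and miR-34c-5p by 0.49. Among 459 other miRNAs with at least 10 CPM, the nearest to miR-34a-5p were miR-181a-5p (0.098), let-7e-3p (0.11) and miR-27a-3p (0.11), where the median distance was 0.50. The nearest to miR-449a-5p were miR-21a-5p (0.13), miR-350-3p (0.15) and miR-224-5p (0.16), with a median of 0.53. For miR-34c-5p they were miR-22-5p (0.30), miR-185-5p (0.31) and miR-22-3p (0.34), with a median of 0.67. Its distances to the other members were 0.25 to 0.57, below that median, and miR-34c-3p was nearer than miR-22-5p. miR-449a-5p lay at 0.36 to 0.50 from the other members, also below its median. miR-34a-5p lay at 0.36 from miR-449a-5p, but at 0.57 to 0.72 from the mir-34b/c members, above its median. These distances are a description of 9 libraries scaled by the same method.

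A list of 11 other miRNAs linked to p53 had 10 that were tested, and none passed in edgeR in any comparison. For knockout against control 8 of the 10 were negative, where 51.1% of all tested miRNAs were negative, with a median log2 fold change of -0.33. An unadjusted p under 0.05 was found for 2 of the 10, miR-192-5p and miR-215-5p, both lower, which is no larger a share than the 25.7% of all tested miRNAs. DESeq2 called 1 of the 10 lower, miR-192-5p, a tubule miRNA, at 758.5 ± 21.1 CPM in knockout kidneys and 2079 ± 1009 CPM in control kidneys (SD, n = 3 each). In that comparison DESeq2 called 104 of the 955 tested miRNAs, so 1 call does not set this list apart. For transgene against control 9 of the 10 were negative, where 53.3% of all tested miRNAs were, with a median of -0.29. An unadjusted p under 0.05 was found for miR-194-5p and miR-215-5p, both lower, beside 8.80% of all tested miRNAs, and for 0 of the 10 with either library size without TMM or with the 2 groups alone. miR-215-5p was low and its controls scattered widely, at 7.297 ± 7.153 CPM, against 2.026 ± 0.8801 CPM in knockout and 2.255 ± 1.416 CPM in transgene kidneys (SD, n = 3 each). miR-192-5p and miR-194-5p also belong to the tubule list, whose sum was lower in each knockout and transgene library than in each control, and these names were given after their values were seen. For knockout against transgene 6 of the 10 were positive, where 53.1% of all tested miRNAs were. The median was 0.10, against 0.05 over all tested miRNAs. With an unadjusted p under 0.05 in edgeR, 1 of the 10 was lower, beside 34 of the 955 tested miRNAs.

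The 3 most abundant of that list are miR-143-3p of smooth muscle and stroma, miR-16-5p, a brake on the cell cycle, and miR-200c-3p of epithelium. miR-143-3p stood at 28810 ± 3186 CPM in knockout kidneys, 25960 ± 5287 CPM in transgene kidneys and 32690 ± 3546 CPM in control kidneys (SD, n = 3 each). miR-16-5p stood at 17040 ± 1598 CPM in knockout, 15110 ± 6936 CPM in transgene and 20500 ± 1589 CPM in control kidneys. miR-200c-3p stood at 3420 ± 840 CPM in knockout, 3118 ± 768 CPM in transgene and 2975 ± 188 CPM in control kidneys.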

How the data were processed

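Small RNA libraries were made by the BGI protocol from Trizol RNA of frozen whole kidneys, per the labels' protocols. Per the submitters' processing notes, the tools were Bowtie2 and CASAVA 1.8 and the build mm10, with no role given. The authors deposited a whole-number read count per small RNA name for each library, and a TPM column that is the deposited count rescaled to a fixed library total and was not used for tests. Mature and hairpin rows of a known mouse miRNA name were added (1607 names; 31743004 to 42609889 counted reads per library). The test of these counts was edgeR's (4.0.16, R 4.3.3; filterByExpr, TMM factors 0.882 to 1.13, quasi-likelihood F test, 955 miRNAs, 9 libraries, group as factor, Benjamini-Hochberg threshold 0.05). SE was the absolute log2 fold change over the square root of F, and intervals used its degrees of freedom. DESeq2 1.42.0 was an alternative. Strand ratios were compared by exact permutation tests. The fit was run on counts simulated from its own estimates of spread, a check of the code and not of the member results. Named were the members, other names of the same hairpins or seed, the p53-linked list by call and abundance, and the 3 nearest profiles. Members and lists were chosen with earlier results of these data known. Reads carry no molecular identifiers.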

Additional observations from a re-analysis of the deposited data

Results flagged for a closer look

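A separate row of the files, the Rfam family "microRNA mir-449", lies outside the miRNA names tested and had more reads in the knockout than in any control. It stood at 1.71, 1.45 and 1.26 CPM of all counted reads in knockout kidneys (61, 46 and 44 reads) and at 0.518, 0.937 and 1.87 in transgene kidneys, against 0.587, 0.416 and 0.780 in control kidneys. The knockout mean was 1.48 and the control mean 0.594 (ratio 2.48, exact two-sided permutation p 0.1, the smallest possible with 3 against 3). Groups did not overlap, with the knockout higher, for 12.6% of 95 such Rfam rows. Which bases these reads cover is not given in the files.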

How the results depend on the processing

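Of 306 values of the 6 members under 17 alternative settings, 294 kept their sign and 12 changed it, and none passed the threshold. For transgene against control, miR-449a-5p (main value -0.02) was 0.12 with all counted reads as library size, 0.18 with miRNA reads, 0.034 without a filter and 0.077 with the 2 groups alone, and -0.23 to 0.15 with 1 library left out; miR-34b-3p was -0.89 to 0.0083 with 1 library left out. For knockout against control, miR-34a-5p was 0.046 with miRNA reads and -0.31 to 0.0047 with 1 library left out. The number of miRNAs called was 4 (transgene against control), 104 (knockout against control) and 3 (knockout against transgene) with DESeq2, which also called 1 of the p53-linked list in the knockout. It was 0 to 48 for knockout against control and 0 to 1 for knockout against transgene with 1 library left out, and 0 for knockout against transgene with the 2 groups alone. The replicate block gave 0 calls in each comparison. Same-numbered libraries of different groups had correlations of deviations from -0.302 to 0.102, and differently numbered ones from -0.269 to 0.351. The labels do not say whether the numbers pair libraries, and so few libraries a group cannot decide it. With the replicate block the fold of miR-34c-5p for knockout against transgene was 0.92 (edgeR adjusted p = 0.783). With 1 library left out, the log2 difference of the 5p over 3p ratio ranged, for mir-34a, from -0.35 to 0.27 (knockout against control), -0.16 to 0.42 (knockout against transgene) and -0.48 to 0.12 (transgene against control); for mir-34b, from -0.46 to 0.20 (knockout against control) and -0.27 to 0.39 (knockout against transgene); for mir-34c, from -0.11 to 0.27 (knockout against control) and -0.30 to 0.085 (transgene against control). For mir-449a in the knockout it was 0.14 with a pseudocount of 5. The 5p ratio of mir-34c to mir-34b ranged from -0.29 to 0.44 (knockout against control), -0.43 to 0.14 (knockout against transgene) and -0.11 to 0.56 (transgene against control), and was -0.26 in the knockout on the 3p strands, an alternative chosen after seeing the data. That of mir-34b/c to mir-34a ranged from -0.53 to 0.26 (transgene against control). Without TMM the median of all tested miRNAs was 0.18 (miRNA reads) and 0.12 (counted reads) for transgene against control, and 0.19 and 0.09 for knockout against control. At an unadjusted p under 0.05 the share higher was 59.5% with TMM against 93.9% and 87.1% without it for the transgene, and 60.8% against 80.7% and 72.9% for the knockout. The causes were not tested.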
